A study of Mus musculus with 6 samples.

Results

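The 42 genes described here carry the Psma, Psmb, Psmc, Psmd, Psme, Psmf and Psmg symbols under which the subunits, assembly factors and regulators of the proteasome are named. They were taken by symbol from the 17097 genes that had a probe set with a single gene symbol on the array, leaving out the interferon-inducible genes Psmb8, Psmb9, Psmb10, Psme1 and Psme2, which are given separately as a comparison. Each gene was represented by its brightest probe set. Of the 42 genes, 40 encode proteasome subunits, assembly chaperones or regulators. The symbol pattern also took in Psmc3ip, a meiotic recombination factor, and Psme3ip1, a binding partner of the Psme3 activator, neither of which is a subunit. Psmc6, Psme4 and Psmd10 had no probe set with a single symbol and were not analysed here.

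Messenger RNA was measured with 6 one-colour arrays, 1 per culture, in CD4+CD25- T cells of female C57BL/6 mice that had been grown for 4 days on coated plates. The BTNL2 wells (2 arrays) carried 2 µg/ml of an anti-CD3 antibody that engages the T cell receptor complex, 3 µg/ml of B7-2.Fc, the CD28 and CTLA-4 ligand CD86 fused to an antibody tail, and 11 µg/ml of BTNL2.Fc, a fusion protein of a butyrophilin-like member of the same wider family. The B7-2 wells (2 arrays) carried the same antibody and B7-2.Fc with control IgG, and the anti-CD3 wells (2 arrays) carried the antibody with control IgG. Every culture also received 0.36 ng/ml of TGF-beta and 10 ng/ml of IL-2, so no group shows cells without these cytokines or without CD3 engagement. The labels disagree on the organ, giving spleen in one place and spleen with lymph nodes elsewhere. Nothing states that the duplicate cultures came from different animals, so the p-values measure only the spread between these cultures, which may be technical.

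The proteasome degrades proteins marked with ubiquitin chains. Its barrel-shaped core particle is built of alpha rings, which gate the entrance, and beta rings, which hold the proteolytic sites, and a regulatory particle of ATPase and non-ATPase subunits binds, deubiquitinates and unfolds substrates. Dedicated chaperones assemble both particles, and alternative activators such as Psme3 can cap the core in place of the regulatory particle. Activated T cells grow and divide quickly, and protein turnover by the proteasome serves signalling, cell cycle progression and antigen processing in them.

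The promoters of 4 members, picked as examples, are printed first, from 250 bases before to 50 bases after the transcription start, as given by RefSeq on GRCm38.p6. They belong to Psme3 and Psmg1, which were higher in B7-2 wells than in anti-CD3 wells, to Psmb5, a catalytic subunit that passed the test only when BTNL2 wells were set against anti-CD3 wells, and to Psmd8, the single member that fell. Capitals mark every match, on either strand, to CCGGAAG (an ETS factor core), CCAAT (the NF-Y box) or TGACNNNGC (the antioxidant response element, which NRF factors bind with small Maf proteins); no match overlaps another in these windows.
Psme3, chr11:101315963-101316262, plus strand: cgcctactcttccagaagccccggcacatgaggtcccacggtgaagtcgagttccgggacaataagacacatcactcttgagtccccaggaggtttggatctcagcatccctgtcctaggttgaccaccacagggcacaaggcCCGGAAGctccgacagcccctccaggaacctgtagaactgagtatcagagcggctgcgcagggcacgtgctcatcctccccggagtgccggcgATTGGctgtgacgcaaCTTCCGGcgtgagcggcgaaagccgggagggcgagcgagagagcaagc
Psmg1, chr16:95990911-95991210, minus strand: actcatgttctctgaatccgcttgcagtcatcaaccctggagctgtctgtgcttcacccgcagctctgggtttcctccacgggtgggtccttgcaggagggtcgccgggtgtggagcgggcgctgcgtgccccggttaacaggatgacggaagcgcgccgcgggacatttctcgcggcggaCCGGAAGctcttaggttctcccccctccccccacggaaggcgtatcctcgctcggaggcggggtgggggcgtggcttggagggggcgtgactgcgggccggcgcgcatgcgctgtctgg
Psmb5, chr14:54617946-54618245, minus strand: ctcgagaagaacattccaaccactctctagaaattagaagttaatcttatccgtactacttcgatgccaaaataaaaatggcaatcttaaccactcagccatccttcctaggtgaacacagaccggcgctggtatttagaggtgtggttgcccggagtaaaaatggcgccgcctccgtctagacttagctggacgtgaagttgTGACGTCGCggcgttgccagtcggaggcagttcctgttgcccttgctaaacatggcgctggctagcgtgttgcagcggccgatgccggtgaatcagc
Psmd8, chr7:29180624-29180923, minus strand: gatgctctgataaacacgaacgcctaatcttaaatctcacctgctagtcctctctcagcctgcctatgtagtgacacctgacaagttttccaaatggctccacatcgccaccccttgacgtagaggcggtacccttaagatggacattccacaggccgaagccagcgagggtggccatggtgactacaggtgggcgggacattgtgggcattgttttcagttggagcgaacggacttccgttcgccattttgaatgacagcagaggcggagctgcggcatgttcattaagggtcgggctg
The Psme3 window held CCGGAAG at 2 places and CCAAT at 1, the Psmg1 window held CCGGAAG once, the Psmb5 window held TGACNNNGC once, and the Psmd8 window held none of them. A match is a run of letters and was not tested as a binding site.

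Promoter windows were found for 34 members, 37 windows in all. CCGGAAG occurred in 15 of these 37 windows (40.5%), against 8.86% of all 32851 promoter windows of the reference and 13.0% of the 16953 windows of genes tested here. The 15 windows belonged to 14 genes. The other motifs were closer to their overall frequency. CCAAT occurred in 37.8% of member windows and 37.4% of all windows. TGACNNNGC occurred in 10.8% and 12.4%, and the members with it were Psmb5, Psmb6, Psmd9 and Psmd12. The GC box GGGCGG occurred in 48.6% of member windows, 35.7% of all windows and 52.3% of windows of genes tested. The heat shock element GAANNTTC was found in 5.41% of member windows and 7.86% of all windows, and TGATGNAA, the element of the ATF4 and CHOP stress factors, in 2.70% and 3.97%. Of the members with CCGGAAG, 10 of 14 were called higher in B7-2 wells than in anti-CD3 wells, against 5 of the 20 with a window but without it. CCAAT ran the other way, with 4 of 14 against 11 of 20, and GGGCGG gave 7 of 18 against 8 of 16. Set against anti-CD3 wells, BTNL2 wells had 11 of 14 members with CCGGAAG called higher and 11 of 20 without it, 7 of 14 with CCAAT and 15 of 20 without it, and 13 of 18 with GGGCGG and 9 of 16 without it. Over all genes tested 11.2% were higher in the first of these comparisons and 14.2% in the second. None of the differences between members with and without a motif was tested.

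The arrays were alike in overall signal, with median intensities of 18.5 to 18.8. Over all genes duplicates correlated at 0.997 to 0.998 and arrays of different groups at 0.974 to 0.987. Ratios of 3' to 5' signal for Gapdh, a measure of RNA integrity and amplification, were 1.40 and 1.43 in BTNL2 wells, 1.28 and 1.33 in B7-2 wells and 1.37 and 1.27 in anti-CD3 wells. For beta-actin they were 1.79 and 1.72 in BTNL2 wells, 1.67 and 1.84 in B7-2 wells and 1.92 and 1.76 in anti-CD3 wells. T cell genes were bright on every array: Cd3e, a chain of the receptor complex, read 3552 and 3567 in BTNL2 wells, 2984 and 3557 in B7-2 wells, and 4133 and 3889 in anti-CD3 wells. Summed intensity over 5 myeloid markers was 53.3 to 61.0 and over 5 erythroid and platelet markers 54.7 to 67.3 on any array, with single myeloid values between 6.08 and 21.5. Differences were tested with limma across all 17097 genes, and a gene was called at a Benjamini-Hochberg adjusted p under 0.05. Changes are given as log2 of the intensity ratio with their standard error (SE), each group having 2 arrays.

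On the anti-CD3 arrays nearly all proteasome members sat below their own mean of the 6 arrays. The median member lay 0.13 and 0.17 log2 units above its mean on the 2 BTNL2 arrays and 0.08 and 0.06 above it on the 2 B7-2 arrays, and it lay at -0.24 and -0.17 on the 2 anti-CD3 arrays. The median over all 17097 genes stayed between -0.01 and 0.01 on every array. Of the 42 members 35 and 37 were above their own mean on the BTNL2 arrays and 37 and 29 on the B7-2 arrays, against 4 on each anti-CD3 array. In these bulk cultures fewer cells of a type and less RNA per cell cannot be told apart.

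**Figure D1:**
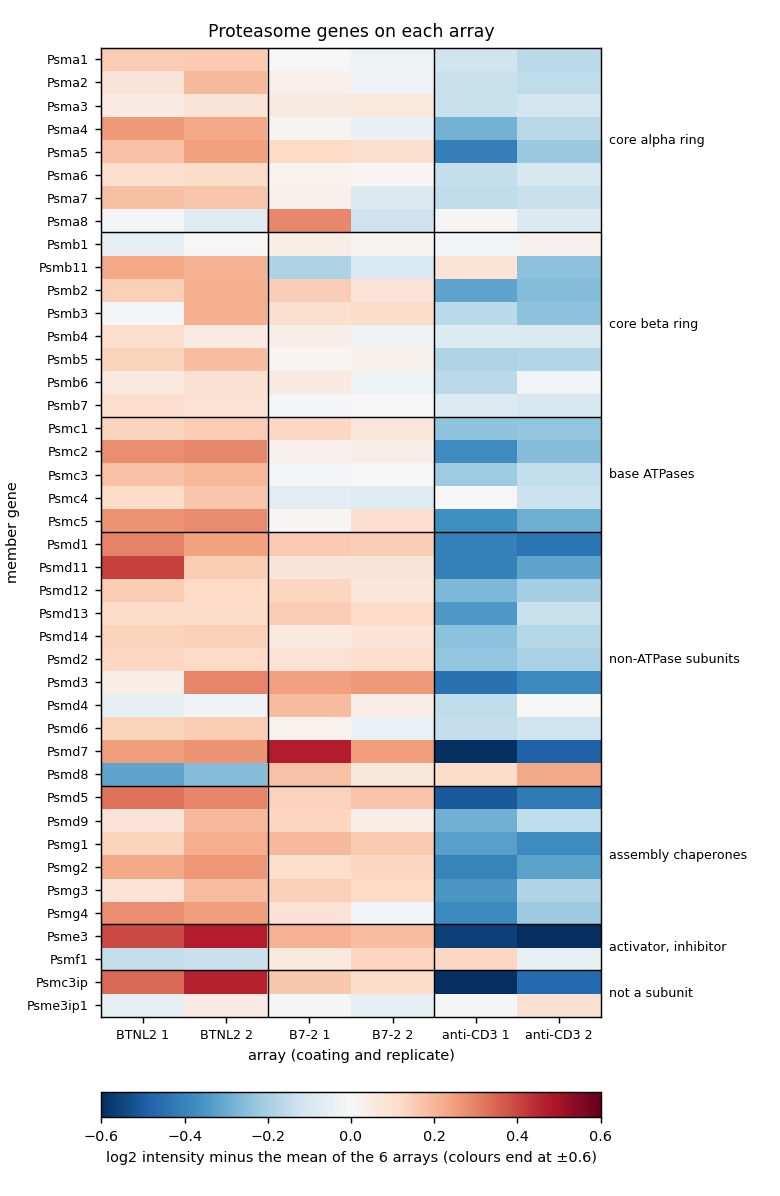
Each row is a member gene and each column an array, and the colour gives log2 intensity minus the gene's mean over the 6 arrays (red above, blue below), with colours ending at ±0.6. The 2 anti-CD3 columns at the right are blue for most members, and Psmd8 is blue only on the BTNL2 arrays. Psma8, Psmb1, Psmb11, Psmd4, Psmf1 and Psme3ip1 are among the other members that do not follow the common pattern.

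The first comparison asks what B7-2 added to anti-CD3. Of the 42 members, 19 rose in B7-2 wells and 0 fell by limma (23 and 0 at an unadjusted p under 0.05), while 11.2% of all genes tested rose and 13.3% fell (24.5% called in all). Among the 5089 genes brighter than a mean intensity of 200, where every subunit, chaperone and regulator gene besides Psma8 and Psmb11 lies, 21.9% rose and 18.6% fell (40.6% in all). The median member change was 0.29 on the log2 scale, against -0.00 over all genes, and 38 of 42 changes were above 0. Both B7-2 arrays exceeded both anti-CD3 arrays for 34 members and lay below them for 0, where 29.3% and 30.8% of all genes did so. Leaving out 1 array lowered the number called to 7 (without anti-CD3 replicate 1), 11 (without anti-CD3 replicate 2), 8 (without B7-2 replicate 1) and 8 (without B7-2 replicate 2). With a variance prior that follows intensity, 29 members were called.

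Of 8 measured cell cycle genes 3 rose in B7-2 relative to anti-CD3 wells and 0 fell, where 11.2% of all genes rose. They were Rrm2, a subunit of ribonucleotide reductase (0.97, limma adjusted p = 0.000625), and the replication licensing factors Mcm5 (0.61, adjusted p = 0.00646) and Mcm2 (0.46, adjusted p = 0.0159, and 0.71 with another of its probe sets). Mki67 (0.04, adjusted p = 0.84) and Top2a (0.00, adjusted p = 0.997), both marks of dividing cells, were not called. Summed intensity over the 8 genes was 12892 and 13609 in BTNL2 wells, 11768 and 11803 in B7-2 wells and 9721 and 10044 in anti-CD3 wells. Relative to anti-CD3 wells 6 of the 8 rose in BTNL2 wells and 0 fell, where 14.2% of all genes rose. Relative to B7-2 wells 1 of the 8 rose in BTNL2 wells and 0 fell, where 9.52% of all genes rose. The part of the cell cycle genes in the proteasome changes was not tested.

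Of the 16 core particle genes 2 rose in B7-2 wells, a share of 12.5%, near the 11.2% of all genes tested that rose. Among all genes brighter than 200 the share was 21.9%, and among those brighter than 2000 it was 11.9%, but both called core genes were dimmer than 2000. Of the 16 changes 15 were above 0 and 1 was below. Both B7-2 arrays exceeded both anti-CD3 arrays for 12 core genes and lay below them for 0, where 29.3% and 30.8% of all genes did so. The alpha ring had 1 of its 8 genes called, with a median change of 0.14, and the beta ring 1 of 8, with a median of 0.10. The alpha ring gene was Psma5, at 1224 and 1205 in B7-2 wells, against 848 and 965 in anti-CD3 wells (log2 change 0.42 ± 0.10 SE, limma adjusted p = 0.0199). The beta ring gene was Psmb2, a noncatalytic subunit, at 997 and 952 in B7-2 wells, against 722 and 751 in anti-CD3 wells (0.40 ± 0.09 SE, limma adjusted p = 0.0153). The arrays of the groups did not overlap for either gene, and the calls were lost under 3 (Psma5) and 4 (Psmb2) of 15 alternatives. The other ring genes above the dim-gene level had changes between 0.02 (Psmb1) and 0.31 (Psmb3), with Psma1, Psma2, Psma3, Psma4, Psma6, Psma7, Psmb4 and the catalytic subunits in between. For Psmb3 a dimmer probe set was called higher (0.76, adjusted p = 0.00254 over all probe sets).

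The 3 standard catalytic subunits were not called in B7-2 wells. Psmb5, which carries the chymotrypsin-like site, read 2778 and 2802 in B7-2 wells and 2427 and 2434 in anti-CD3 wells, a log2 change of 0.20 ± 0.08 SE (limma adjusted p = 0.137). Psmb6, the caspase-like subunit, read 3450.2 and 3256 in B7-2 wells and 2965 and 3281 in anti-CD3 wells, and these arrays overlapped (0.10, adjusted p = 0.499). Psmb7, the trypsin-like subunit, read 2992 and 3012 in B7-2 wells and 2837 and 2813 in anti-CD3 wells (0.09, adjusted p = 0.516). Psma8, a core subunit of spermatocytes, and Psmb11, of the thymic cortex, were dim on every array, at 5.56 to 7.41 and 5.06 to 7.04, below the level of the dim-gene filter (12.4), and were not called in any comparison.

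Of the regulatory particle genes 10 of 16 rose in B7-2 wells and none of the 16 fell (0 by limma, 0 at an unadjusted p under 0.05), with a median change of 0.34. Over all genes tested 11.2% rose, and among those brighter than 200 the share was 21.9%. Among the ATPases, the motor ring, 3 of 5 rose, namely Psmc1 (log2 change 0.33), Psmc2 (0.35) and Psmc5 (0.38), while Psmc3 (0.17) and Psmc4 (-0.00) were not called. Among the non-ATPase subunits 7 of 11 rose. They were the base scaffolds Psmd1 and Psmd2 and the lid subunits Psmd3, Psmd7, Psmd11, Psmd12 and Psmd13. Several of these calls were lost under some of the 15 alternatives, that of Psmd13 under 7, those of Psmc1 and Psmd2 under 6, that of Psmd12 under 5 and those of Psmc2, Psmc5 and Psmd11 under 4. The differences between the roles were not tested.

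Psmd7, a lid subunit that pairs with the deubiquitinase Psmd14, had the largest change of all members in B7-2 wells. It read 306 and 262 in B7-2 wells, against 130.3 and 157 in anti-CD3 wells, a 1.98-fold difference (log2 change 0.98 ± 0.12 SE, limma adjusted p = 0.00188). Its other 2 probe sets, of mean intensity 37.9 and 45.6, showed log2 changes of 0.38 (adjusted p = 0.0745 over all probe sets) and 0.16 (adjusted p = 0.423), and with the 3 averaged the change was 0.51. Psmd3, another lid subunit, read 499.6 and 503 in B7-2 wells, against 309 and 323 in anti-CD3 wells (log2 change 0.66 ± 0.11 SE, limma adjusted p = 0.00488). Psmd1, the scaffold that anchors the ubiquitin receptor Adrm1, read 2228 and 2211 in B7-2 wells, against 1509 and 1471 in anti-CD3 wells, a 1.49-fold difference (limma adjusted p = 0.00325). Both B7-2 arrays stood clear of both anti-CD3 arrays for all 3 genes.

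The ubiquitin-handling subunits Psmd14 and Psmd4 did not pass the test in B7-2 wells. Psmd14, the deubiquitinase of the lid, read 3489 and 3539 in B7-2 wells and 2825 and 2981 in anti-CD3 wells (0.28, limma adjusted p = 0.0547). Psmd4, a ubiquitin receptor, read 1904 and 1716 in B7-2 wells and 1502 and 1674 in anti-CD3 wells (0.19, limma adjusted p = 0.238). For both genes the arrays of the groups did not overlap, and Psmd6, at a change of 0.12, was not called either.

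The assembly chaperones rose in 5 of 6 cases in B7-2 wells, with a median change of 0.44. The shares that rose were 11.2% of all genes tested and 21.9% of those brighter than 200. Psmg1, which helps to build the alpha ring and whose promoter is printed above, read 539 and 524 in B7-2 wells, against 375 and 363 in anti-CD3 wells, a 1.44-fold difference (log2 change 0.53 ± 0.09 SE, limma adjusted p = 0.00511). Psmg2, its partner, read 1014 and 1032 in B7-2 wells, against 716 and 755 in anti-CD3 wells (0.48, adjusted p = 0.00714). For all 6 measured chaperones both B7-2 arrays exceeded both anti-CD3 arrays, where 29.3% of all genes did so. Psmg3 read 920.3 and 905 in B7-2 wells, against 655 and 734 in anti-CD3 wells (0.40, adjusted p = 0.0248). Its partner Psmg4 read 443 and 412 in B7-2 wells, against 320.4 and 358 in anti-CD3 wells (0.34, adjusted p = 0.0448). The Psmg4 call was lost under 9 of 15 alternatives, that of Psmg3 under 3 and that of Psmg2 under 1. Of the chaperones of the ATPase ring, Psmd5 read 573 and 586 in B7-2 wells, against 368 and 388 in anti-CD3 wells (0.62 ± 0.09 SE, adjusted p = 0.00264), and Psmd9, at 505 and 476 in B7-2 wells against 378 and 416 in anti-CD3 wells, was not called (0.30, adjusted p = 0.064).

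Psme3 forms a nuclear activator that opens the core without ubiquitin. It read 994 and 979.8 in B7-2 wells, against 585 and 529.9 in anti-CD3 wells, a 1.77-fold difference (log2 change 0.83 ± 0.09 SE, limma adjusted p = 0.00122), and its second probe set also rose (log2 change 0.56, adjusted p = 0.00731 over all probe sets). Psmf1, an inhibitor of the core in vitro, read 383 and 402 in B7-2 wells and 401 and 356 in anti-CD3 wells, which overlapped (0.05, adjusted p = 0.753). Outside the proteasome proper, Psmc3ip read 280.2 and 271 in B7-2 wells, against 164 and 182 in anti-CD3 wells (0.67 ± 0.10 SE, adjusted p = 0.00306). Psme3ip1 read 204 and 220.1 in BTNL2 wells, 212 and 204 in B7-2 wells and 211 and 227 in anti-CD3 wells. Its arrays overlapped in all 3 comparisons, and it was not called.

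**Figure D2:**
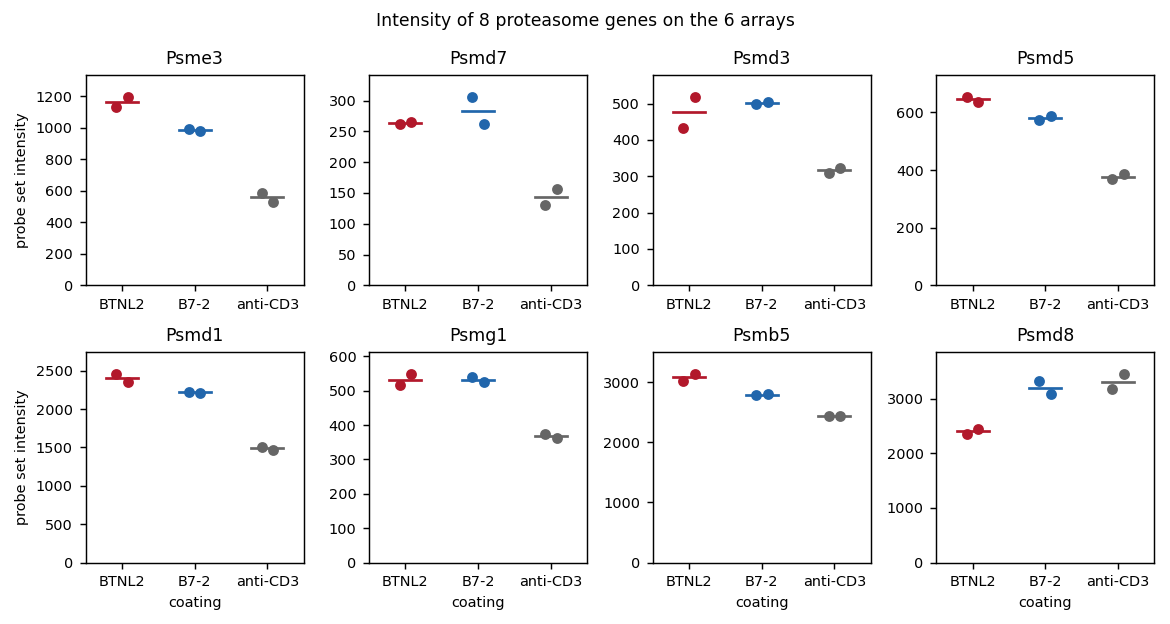
Probe set intensity (linear axis from 0) of 8 members on the 6 arrays, with BTNL2 wells left, B7-2 wells in the middle and anti-CD3 wells right; each point is an array and the bar is the mean of 2. Psme3 reads 1134 and 1194 in BTNL2 wells, 994 and 979.8 in B7-2 wells and 585 and 529.9 in anti-CD3 wells, whereas Psmd8 is lowest in BTNL2 wells.

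The size of the change differed with brightness. Across the 40 subunit, chaperone and regulator genes the Spearman correlation of mean log2 intensity with the B7-2 change was -0.47, and Pearson's was -0.13. The genes share the same 6 arrays. The 40 include Psma8 and Psmb11, at mean intensities of 6.06 and 6.00, where the next dimmest, Psmd7, is at 220. The correlations were not computed without them. Of the 17 such genes with a mean intensity over 2000, 1 rose (Psmc1), and of the 23 at or under 2000, 17 rose. Among all genes tested 11.9% of the 641 above 2000 rose, as did 23.4% of the 4448 between 200 and 2000. The part of brightness in the difference between core and regulatory genes was not tested.

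The second comparison asks what BTNL2 added to B7-2. Of the 42 members 0 rose and 1 fell by limma (7 and 2 at an unadjusted p under 0.05), while 9.52% of all genes rose and 10.8% fell (20.4% called in all). Among genes brighter than 200, 12.9% rose and 14.3% fell (27.2% in all). The median member change was 0.08, against -0.01 over all genes, and changes ran from -0.41 to 0.36. Both BTNL2 arrays exceeded both B7-2 arrays for 26 members and lay below them for 5, where 27.9% and 31% of all genes did so. The 95% intervals of 40 of the 41 members not called lay within 0.5 log2 units of 0, the exception being the dim Psmb11, so changes of up to that size were not excluded for single genes. With the variance prior that follows intensity, 11 members were called, 10 of them higher.

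The member that fell was Psmd8, a lid subunit needed for joining the lid to the base. It read 2355 and 2450.2 in BTNL2 wells, against 3313 and 3079.8 in B7-2 wells and 3169 and 3444 in anti-CD3 wells. It was 1.33-fold lower in BTNL2 wells than in B7-2 wells (log2 change -0.41 ± 0.09 SE, limma adjusted p = 0.0217) and 1.38-fold lower than in anti-CD3 wells (-0.46 ± 0.09 SE, adjusted p = 0.00902). Both BTNL2 arrays lay below the other 4 arrays. The call against B7-2 wells was lost when any 1 of the 4 arrays compared was left out, with log2 changes of -0.36 to -0.46 and adjusted p up to 0.118, and the call against anti-CD3 wells was lost without anti-CD3 replicate 2 (-0.40, adjusted p = 0.0624).

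By role, the median change in BTNL2 wells relative to B7-2 wells was 0.12 for the alpha ring, 0.07 for the beta ring, 0.21 for the ATPases, 0.03 for the non-ATPase subunits and 0.09 for the chaperones. The largest positive change among members above the dim-gene level was that of Psmc3ip, at 318 and 346 in BTNL2 wells and 280.2 and 271 in B7-2 wells (0.27, limma adjusted p = 0.103). The core subunit Psma4 read 1620.35 and 1587 in BTNL2 wells and 1375 and 1315 in B7-2 wells (0.25, adjusted p = 0.0958), and the ATPase Psmc2 read 1869 and 1879 in BTNL2 wells and 1571 and 1583 in B7-2 wells (0.25, adjusted p = 0.0935). Psme3 read 1134 and 1194 in BTNL2 wells, above both B7-2 arrays, and its change of 0.24 had a 95% interval of 0.02 to 0.46 before adjustment (adjusted p = 0.125). The catalytic subunit Psmb5 read 3023 and 3128 in BTNL2 wells, also above both B7-2 arrays, with a change of 0.14 (adjusted p = 0.305). Psmg1 overlapped between the groups, at 517 and 548 in BTNL2 wells and 539 and 524 in B7-2 wells (interval -0.20 to 0.21). For Psmf1 the probe set used changed by -0.23 and its other 3 by 0.15, 0.36 and 0.52, and none of them was called. With each probe set tested on its own, a dimmer one of Psmd7 was called lower (-0.48, adjusted p = 0.0377) and the brightest was not (-0.10).

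**Figure D3:**
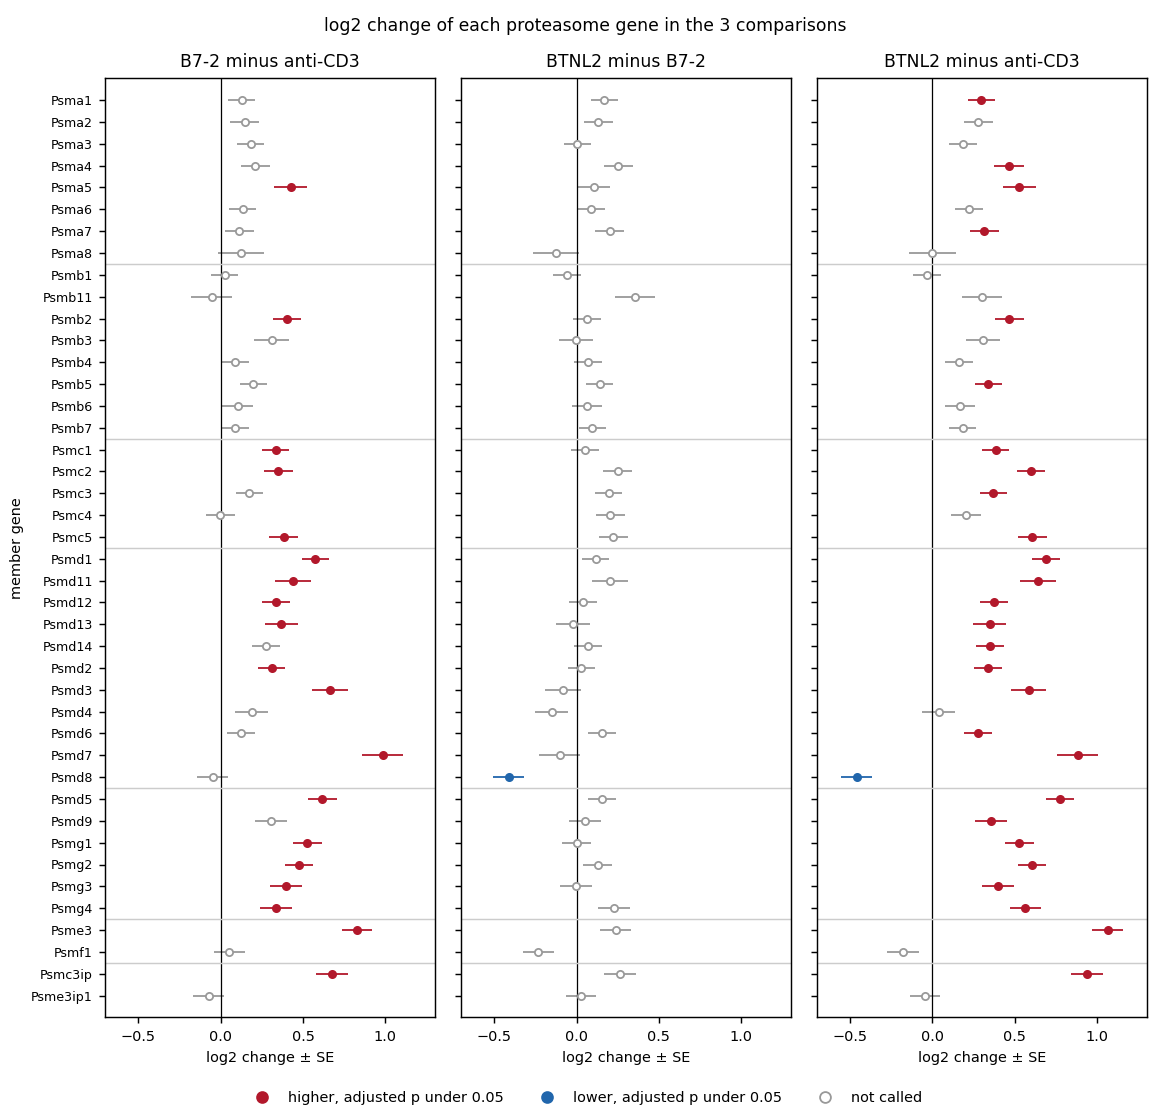
Each row is a member and each panel a comparison; the point is the log2 change and the bar its standard error, filled red for called higher, filled blue for called lower and open for not called. The B7-2 minus anti-CD3 panel has 19 red points, the BTNL2 minus B7-2 panel has Psmd8 as its single filled point, and the BTNL2 minus anti-CD3 panel has 27 red points and Psmd8 in blue.

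The third comparison sets the full coating against anti-CD3 with IgG. It shares the anti-CD3 arrays with the first comparison and the BTNL2 arrays with the second, so its counts are not independent of theirs. Of the 42 members 27 rose and 1 fell in BTNL2 wells, while 14.2% of all genes rose and 16.2% fell (30.4% called in all). Among genes brighter than an intensity of 200, 26.1% rose and 22.9% fell (49% in all). The median member change was 0.35, and 9 members changed by more than 1.5-fold, 1 of them by more than 2-fold. Both BTNL2 arrays exceeded both anti-CD3 arrays for 36 members and lay below them for 2, where 30.8% and 32.2% of all genes did so. The number called was 16 without anti-CD3 replicate 1, 17 without anti-CD3 replicate 2 and 18 without BTNL2 replicate 2.

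The member that changed by more than 2-fold was Psme3, at 1134 and 1194 in BTNL2 wells against 585 and 529.9 in anti-CD3 wells, a 2.09-fold difference (log2 change 1.06 ± 0.09 SE, limma adjusted p = 0.000229). Psmc3ip, at 318 and 346 in BTNL2 wells against 164 and 182 in anti-CD3 wells, followed at 1.92-fold (adjusted p = 0.000475). Psmd7 read 262 and 266 in BTNL2 wells, against 130.3 and 157 in anti-CD3 wells (0.88 ± 0.12 SE, adjusted p = 0.0018), but with the mean of its 3 probe sets the change was 0.21 and was not called (adjusted p = 0.162). Psmd5 read 653 and 637 in BTNL2 wells, against 368 and 388 in anti-CD3 wells, a 1.71-fold difference (adjusted p = 0.000649). Psmd3, at 434 and 518 in BTNL2 wells against 309 and 323 in anti-CD3 wells, was higher by 0.58 on the log2 scale (adjusted p = 0.00593), and Psmd1, at 2453 and 2358 in BTNL2 wells against 1509 and 1471 in anti-CD3 wells, was 1.61-fold higher (adjusted p = 0.000949). In each of these genes both BTNL2 arrays were above both anti-CD3 arrays.

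Of the alpha ring genes 4 of 8 rose in BTNL2 wells, Psma1 (log2 change 0.30), Psma4 (0.47), Psma5 (0.53) and Psma7 (0.32), and of the beta ring genes 2 of 8, Psmb2 (0.47) and Psmb5. Those are shares of 50% and 25%, where 14.2% of all genes tested and 26.1% of genes brighter than 200 rose. The Psma1 call was lost under 9 of 15 alternatives, with a change of 0.09 when its probe sets were averaged (adjusted p = 0.682), the Psma7 call under 5, the Psmb5 call under 4 and the Psma4 call under 1. Psmb5 read 3023 and 3128 in BTNL2 wells, against 2427 and 2434 in anti-CD3 wells (0.34 ± 0.08 SE, limma adjusted p = 0.0196). Psmb6, at 3464 and 3542 in BTNL2 wells against 2965 and 3281 in anti-CD3 wells, was not called (0.17, adjusted p = 0.246). Psmb7, at 3226 and 3191 in BTNL2 wells against 2837 and 2813 in anti-CD3 wells, was not called either (0.18, adjusted p = 0.149). For all 3 catalytic subunits both BTNL2 arrays were above both anti-CD3 arrays, and whether they differ in their changes was not tested. Of the remaining ring genes Psma2 (0.28, adjusted p = 0.0539), Psmb3 (0.31, adjusted p = 0.0667), Psma3, Psma6 and Psmb4 lay above 0 and Psmb1 (-0.03) did not. The dimmer probe set of Psmb3 was called higher (0.57, limma adjusted p = 0.00524 over all probe sets).

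The ATPases rose in 4 of 5 cases in BTNL2 wells relative to anti-CD3 wells, with Psmc5 at 1387 and 1400.2 in BTNL2 wells against 892 and 939 in anti-CD3 wells (0.61, limma adjusted p = 0.00207) and Psmc2 at 1869 and 1879 in BTNL2 wells against 1190.3 and 1287 in anti-CD3 wells (0.60, adjusted p = 0.0021). Psmc4 was not called (0.20), although its second probe set was (0.46, adjusted p = 0.00971 over all probe sets). Of the 11 non-ATPase subunits 9 rose and Psmd8 fell. Besides those given above they were Psmd11 (0.64, and 0.36 with its probe sets averaged), Psmd12 (0.37), Psmd13 (0.35), Psmd2 (0.34) and Psmd6 (0.28). The Psmd6 call was lost under 10 and the Psmd13 call under 7 of 15 alternatives. The other one, Psmd4, read 1611 and 1647 in BTNL2 wells and 1502 and 1674 in anti-CD3 wells, with overlapping arrays (0.04, adjusted p = 0.825). Psmd14 rose, at 3676 and 3705 in BTNL2 wells against 2825 and 2981 in anti-CD3 wells (0.35, adjusted p = 0.0195). Across all genes tested 14.2% rose and 16.2% fell in this comparison, and among those brighter than 200 26.1% rose and 22.9% fell.

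All 6 chaperones rose in BTNL2 wells, with a median change of 0.55, where 14.2% of all genes tested and 26.1% of genes brighter than 200 rose. Psmg1 read 517 and 548 in BTNL2 wells, against 375 and 363 in anti-CD3 wells (0.53, limma adjusted p = 0.00349). Psmg2 read 1104 and 1132 in BTNL2 wells, against 716 and 755 in anti-CD3 wells (0.60, adjusted p = 0.00181). Psmg3, at 880.35 and 945 in BTNL2 wells against 655 and 734 in anti-CD3 wells, was also higher (0.40, adjusted p = 0.0198). Psmg4 read 506 and 496 in BTNL2 wells, against 320.4 and 358 in anti-CD3 wells (0.56, adjusted p = 0.00425, and 0.34 with its probe sets averaged). The BTNL2 arrays were above the anti-CD3 arrays for every chaperone, where 30.8% of all genes did so. Psmd9, a chaperone of the ATPase ring, read 487 and 529 in BTNL2 wells, against 378 and 416 in anti-CD3 wells (0.35, limma adjusted p = 0.0315).

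The 5 interferon-inducible genes left out of the 42 encode replacements for the catalytic subunits and an activator. In B7-2 wells relative to anti-CD3 wells 0 of them rose and 1 fell by limma (0 and 1 at an unadjusted p under 0.05), with a median change of 0.00. In BTNL2 wells relative to B7-2 wells 2 rose and 0 fell (4 and 0 at an unadjusted p under 0.05), with a median of 0.30. Over all genes tested 11.2% rose and 13.3% fell in the first of these comparisons, and 9.52% and 10.8% in the second. Psmb10, the inducible counterpart of Psmb7, read 2275 and 2369 in BTNL2 wells, 1529 and 1466 in B7-2 wells and 1357 and 1456 in anti-CD3 wells. It was 1.55-fold higher in BTNL2 than in B7-2 wells (log2 change 0.63 ± 0.09 SE, limma adjusted p = 0.00286). Psme2, a subunit of the interferon-inducible activator, read 3651 and 3546 in BTNL2 wells, 2907 and 2793 in B7-2 wells and 2582 and 2771 in anti-CD3 wells, a change of 0.34 ± 0.09 SE against B7-2 wells (adjusted p = 0.0366). That call was lost under 8 of 15 alternatives.

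Psmb9, the counterpart of Psmb6, read 2209.6 and 2154 in BTNL2 wells, 1822 and 1725 in B7-2 wells and 2281 and 2396 in anti-CD3 wells. It was lower in B7-2 than in anti-CD3 wells (-0.40 ± 0.09 SE, limma adjusted p = 0.016). In BTNL2 relative to B7-2 wells Psmb9 changed by 0.30 and was not called (adjusted p = 0.0527). A dimmer probe set was called higher there (0.42, adjusted p = 0.0369 over all probe sets), and the dimmest was not (0.17). Psmb8, the counterpart of Psmb5, read 3822 and 4137 in BTNL2 wells, 3418 and 3280.5 in B7-2 wells and 3321 and 3357 in anti-CD3 wells, and was not called in any comparison. Psme1, the partner of Psme2, lay between 4424 and 5189 and was not called either. Whether the inducible and the standard genes differ in their changes was not tested.

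**Figure D4:**
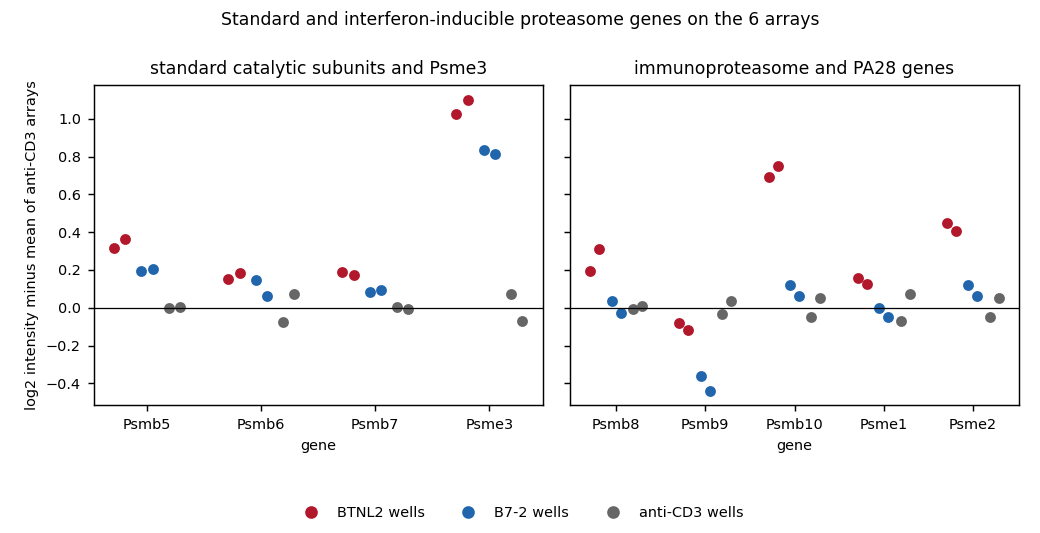
Points are single arrays, as log2 intensity minus the mean of the 2 anti-CD3 arrays of the same gene, for the standard catalytic subunits and Psme3 (left panel) and for the interferon-inducible genes (right panel). Psme3 stands high in BTNL2 and in B7-2 wells, Psmb10 and Psme2 stand high in BTNL2 wells, and Psmb9 is lowest in B7-2 wells.

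Other genes of the ubiquitin and proteasome pathway came from lists chosen by function. Of 8 measured proteasome partners 3 rose in B7-2 wells relative to anti-CD3 wells (median 0.23) and 4 rose in BTNL2 relative to anti-CD3 wells. In BTNL2 relative to B7-2 wells 0 were called by limma, and 0 had an unadjusted p under 0.05 (median 0.03). Relative to anti-CD3 wells 11.2% of all genes tested rose in B7-2 wells and 14.2% in BTNL2 wells. In BTNL2 relative to B7-2 wells 20.4% of all genes were called. The deubiquitinase Usp14, which docks on the regulatory particle, read 536 and 518 in BTNL2 wells, 441 and 505 in B7-2 wells and 280 and 308 in anti-CD3 wells (B7-2 minus anti-CD3 0.69, limma adjusted p = 0.0039). Uchl5, the other docking deubiquitinase, changed by 0.48 (adjusted p = 0.0147, and by 0.87 with its probe sets averaged), and the maturation factor Pomp was not called (0.11). Of 10 shuttle and segregase genes 5 rose, among them Ubqln4 (0.69, adjusted p = 0.00454) and Rad23b (0.45), and 1 fell, the glycanase Ngly1 (-0.44 ± 0.11 SE, adjusted p = 0.0261).

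Of the 6 NRF and Maf factors, 2 rose in B7-2 wells relative to anti-CD3 wells, the partners Mafk (0.66, limma adjusted p = 0.0042) and Mafg (0.47, adjusted p = 0.0129). Nfe2l1, which drives proteasome genes when degradation is impaired, read 155 and 164 in BTNL2 wells, 197 and 224 in B7-2 wells and 187 and 169.8 in anti-CD3 wells. It was lower in BTNL2 than in B7-2 wells (-0.40 ± 0.10 SE, adjusted p = 0.0355), a call lost under 8 of 15 alternatives. Nfe2l2, its oxidative stress relative, read 155.5 and 141 in BTNL2 wells, 80.6 and 86.05 in B7-2 wells and 98.1 and 99.3 in anti-CD3 wells. It was higher in BTNL2 than in B7-2 wells (0.83 ± 0.09 SE, adjusted p = 0.00105), and still called with its probe sets averaged (0.48). It was also higher in BTNL2 than in anti-CD3 wells (0.58, adjusted p = 0.00321), but with its probe sets averaged that change was -0.17 and was not called (adjusted p = 0.157). Of the 5 measured genes of ubiquitin activation and conjugation 0 were called in B7-2 relative to anti-CD3 wells and 0 in BTNL2 relative to B7-2 wells (2 and 1 at an unadjusted p under 0.05), and 3 rose in BTNL2 relative to anti-CD3 wells. The shares of all genes that rose were 11.2% in B7-2 and 14.2% in BTNL2 relative to anti-CD3 wells.

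Markers of T cells and of other cells also differed between the groups. Summed intensity over 7 T cell genes was 16303 and 16399 in BTNL2 wells, 15846 and 16292 in B7-2 wells and 20335 and 19720 in anti-CD3 wells. In B7-2 relative to anti-CD3 wells 3 of the 7 fell, where 13.3% of all genes did. Cd4 itself read 1103 and 1159 in BTNL2 wells, 1407 and 1319.8 in B7-2 wells and 1705 and 1557 in anti-CD3 wells. Over 6 CD8 and NK cell genes the sum was 5307 and 4940 in BTNL2 wells, 3042 and 3057 in B7-2 wells and 3494 and 3601 in anti-CD3 wells. Of these 6, 4 were higher in BTNL2 than in B7-2 wells, where 9.52% of all genes were. Cd8a was among them, at 987 and 924 in BTNL2 wells, 119 and 107 in B7-2 wells and 302 and 321 in anti-CD3 wells. Klrd1, another of them, read 201 and 220 in BTNL2 wells, 32.55 and 42.2 in B7-2 wells and 129 and 149 in anti-CD3 wells. The NK marker Ncr1 lay at 4.75 to 6.62. Over 4 B cell genes the sum was 572 and 737 in BTNL2 wells, 291 and 271 in B7-2 wells and 563 and 527 in anti-CD3 wells, with 3 of the 4 higher in BTNL2 than in B7-2 wells. Ms4a1 was among them, at 280 and 384 in BTNL2 wells, 95.3 and 97.8 in B7-2 wells and 133 and 128 in anti-CD3 wells. Pax5, which defines B cells, lay at 6.33 to 8.01. The part of these markers, and of the Gapdh and beta-actin ratios above, in the proteasome changes was not tested.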

How the data were processed

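The authors deposited 1 table of probe set intensity values on a linear scale for the 6 arrays, and the submitters' processing notes name RMA. That method corrects background, equalises the arrays and summarises the probes of a set, so a change shared by most transcripts would not be seen. Software and probe grouping were not given in the sources used here. Per the labels' protocols, 50 ng of RNA was amplified before labelling. The table held 45141 probe sets, of which 28898 had a single symbol in the platform annotation. Symbols were updated by Entrez identifier for 28689 of them, and the probe set of highest mean was kept for each of 17097 genes. For the 42 members this chose among 66 probe sets, and 15 members had more than 1.

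The deposited intensities, assumed to be log2 values when the tests were planned, were log2 transformed and tested with limma 3.58.1 in R 4.3.3, with all 6 arrays in 1 fit (3 residual and 4.02 prior degrees of freedom), two-sided, with Benjamini-Hochberg adjustment over all 17097 genes at 0.05. No filter on dim genes was used. The lowest fold called was 1.20. The fit was tested on simulated data in which 200 of the 17097 genes changed. Of genes changed 1.2-fold, 5.97% were recovered for B7-2 minus anti-CD3 and 0% for each comparison with BTNL2 wells. At 1.5-fold 65.7% were recovered in every comparison. False calls made up 3.42% (B7-2 minus anti-CD3), 7.63% (BTNL2 minus B7-2) and 6.78% (BTNL2 minus anti-CD3) of calls. Far more genes were called in the data than changed in the simulation, so these shares need not carry over. The number of arrays limits the precision. Deviations of same-numbered arrays correlated at -0.03, -0.00 and -0.06, so no shift common to a replicate number was seen. These values cannot tell whether the cultures were paired. Alternatives changed the variance prior, the arrays in the fit, a dim-gene filter, the scaling, the probe sets per gene, the replicate block and each array in turn. By a rule set in the plan, values of every array were given for the 4 largest called rises and falls of each comparison, Psmb5, Psmb6, Psmb7, Psmd4, Psmd14, called chaperones and activators, members that are not subunits, the interferon-inducible genes, Nfe2l1 and Nfe2l2, and up to 4 called genes of smallest p were named from each other list; further names were chosen after their values were seen. The members and gene lists were chosen with earlier results of these data known. Promoter letters came from RefSeq.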

Additional observations from a re-analysis of the deposited data

How the results depend on the processing

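Directions of the member medians held in all alternatives tried for the 3 comparisons, and the numbers called depended on single arrays. For B7-2 minus anti-CD3, 19 members were called, 29 with the intensity trend in the variance prior, and 7 to 17 with 1 array left out. Its median member change of 0.29 was 0.26 after another quantile normalization, 0.23 with a gene's probe sets averaged, and 0.24 to 0.30 with 1 array left out, and its 4190 called genes numbered 2454 to 4128. For BTNL2 minus B7-2, 1 member was called, 11 with the intensity trend, 2 with each probe set tested on its own (an alternative chosen after seeing the data), and 0 to 1 with 1 array left out. Its median ran from 0.07 to 0.10, and its 3482 called genes numbered 2142 to 3015. For BTNL2 minus anti-CD3, 28 members were called and 16 to 25 with 1 array left out, with a median of 0.33 to 0.39 and 3726 to 4870 called genes. Leaving out an array leaves its group with 1, which is then assumed to vary like the other groups. With the replicate block the members called were 14, 1 and 24 in the 3 comparisons; the replicate numbers are not known to pair the cultures. Of the 19 members called for B7-2 minus anti-CD3, 7 were called under all 15 alternatives (Psmc3ip, Psmd1, Psmd3, Psmd5, Psmd7, Psme3 and Psmg1), and of the 28 for BTNL2 minus anti-CD3, 13 were. Nfe2l2 reversed in BTNL2 minus anti-CD3, at -0.17 with a gene's probe sets averaged against 0.58 with the brightest; the cause was not tested. The causes of the other differences were not tested either. Psma8 and Psmb11 lay below the dim-gene filter, so changes in them rest on signal near background.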
